A study of Mus musculus with 12 samples.

Results

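The Bcl2 family sets the threshold for apoptosis at the mitochondrial outer membrane. Anti-apoptotic members (Bcl2, Bcl2l1, Bcl2l2, Mcl1) hold the effectors Bak1 and Bax in check, and BH3-only members (Bad, Bid, Bik, Bcl2l11) bind the anti-apoptotic members, or the effectors themselves, and so favor the release of cytochrome c. Wild-type p53 acts on this balance mainly by inducing Bax, Bbc3 and Pmaip1. The genes described here are 10 measured family genes outside those p53 targets: Bcl2, Bcl2l1, Bcl2l2, Mcl1, Bak1, Bad, Bid, Bik, Bcl2l11 and Bnip2, the last of which encodes a binding partner of Bcl2. Further measured genes of the family are counted from a list below. They were chosen by name, and every probe set whose annotation gives 1 of these symbols alone was kept. This gave 33 probe sets of 10 genes, from 1 for Bcl2 to 6 for Mcl1, out of 22626 probe sets tested and 12393 genes named on the array.

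The tumors were salivary tumors of adult mice that carry a ras oncogene (v-Ha-ras) driven by the MMTV promoter, a viral promoter active in mammary and salivary epithelium. All 12 tumors shared this transgene and differed in both germline copies of p53: 4 tumors were MMTV-ras/p53+/+ (WT1 to WT4), 4 were MMTV-ras/p53-/- (KO1 to KO4), and 4 were MMTV-ras/p53R172H/R172H (MT1 to MT4), a knock-in of a mutant p53 that does not bind DNA normally. The mice were on a mixed Balb/c and C57BL/6 background, and the R172H colony was founded by a separate cross from C57BL/6 mice, so that genotype and breeding cannot be fully told apart. Age and sex of the 12 animals are not given in the labels. Expression was measured on 1 Affymetrix array per tumor. All values are log2 expression levels, taken to be made by RMA, which the paper's methods name. In RMA, background is removed, quantiles are matched between arrays and the short probes of a probe set are summed up. A difference of 1 on this scale is a doubling. In bulk tumor RNA, fewer cells of a type and less RNA per cell cannot be told apart.

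The genotypes were compared by limma, a linear model with 1 mean per genotype over all 12 tumors, in which each probe set's spread is drawn toward that of the others. Differences are given on the log2 scale with their standard error (SE), and a probe set is said to have risen or fallen when its p-value, adjusted by Benjamini and Hochberg over the 22626 probe sets, was under 0.05. The 2 probe sets of Trp53 were higher in WT (7.38 to 8.53) and MT tumors (7.88 to 9.29) than in KO tumors (5.85 to 6.89), in the order that the genotypes call for. Some tumors stood apart for other reasons. Spiked poly-A control transcripts, added before labeling, averaged 10.38 to 10.56 in MT1 to MT3, against 3.98 to 4.23 in each of the remaining tumors. MT4 is thus the only MT tumor with the low control signal of the WT and KO tumors. The split of the arrays is inferred from these controls alone. A fit with this split as a block therefore rests on MT4 for every MT comparison. It turned the sign of 13 of the 33 member differences for MT minus KO and of 7 of the 33 for MT minus WT, and none passed in it (lowest adjusted p = 0.544 and 0.447). WT1 carried the highest mean of B and plasma cell markers (9.12, against 5.44 to 6.06 elsewhere), of T and NK cell markers (6.98, against 5.25 to 5.62) and of granulocyte markers (7.68, against 5.44 to 6.32). Skeletal muscle markers were highest in MT1 (6.39, against 4.98 to 5.48). Epithelial markers were high in all tumors (9.71 to 10.71, 12 of 12 measured), and 2 of these 12 passed as raised in WT over KO tumors.

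Few of the 33 probe sets passed in a comparison of p53 status, and those that did belonged to Bcl2l1 and Bad. Between WT and KO tumors, 1 probe set was higher in WT, against 2.64 percent of all probe sets, and 2 were lower, against 1.94 percent. Between MT and KO tumors none passed in either direction (0.00884 percent of all probe sets were higher in MT and 0 percent lower), and 7 of the 33 had an unadjusted p under 0.05, against 9.58 percent of all probe sets. An ordinary t-test also called none in that comparison. Between MT and WT tumors 1 was higher in MT, against 0.177 percent, and none was lower, against 0.19 percent. The median difference over the 33 probe sets was −0.10 for WT minus KO, 0.08 for MT minus KO and 0.16 for MT minus WT. Over all probe sets tested the same medians were 0.02, 0.02 and −0.01.

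**Figure D1:**
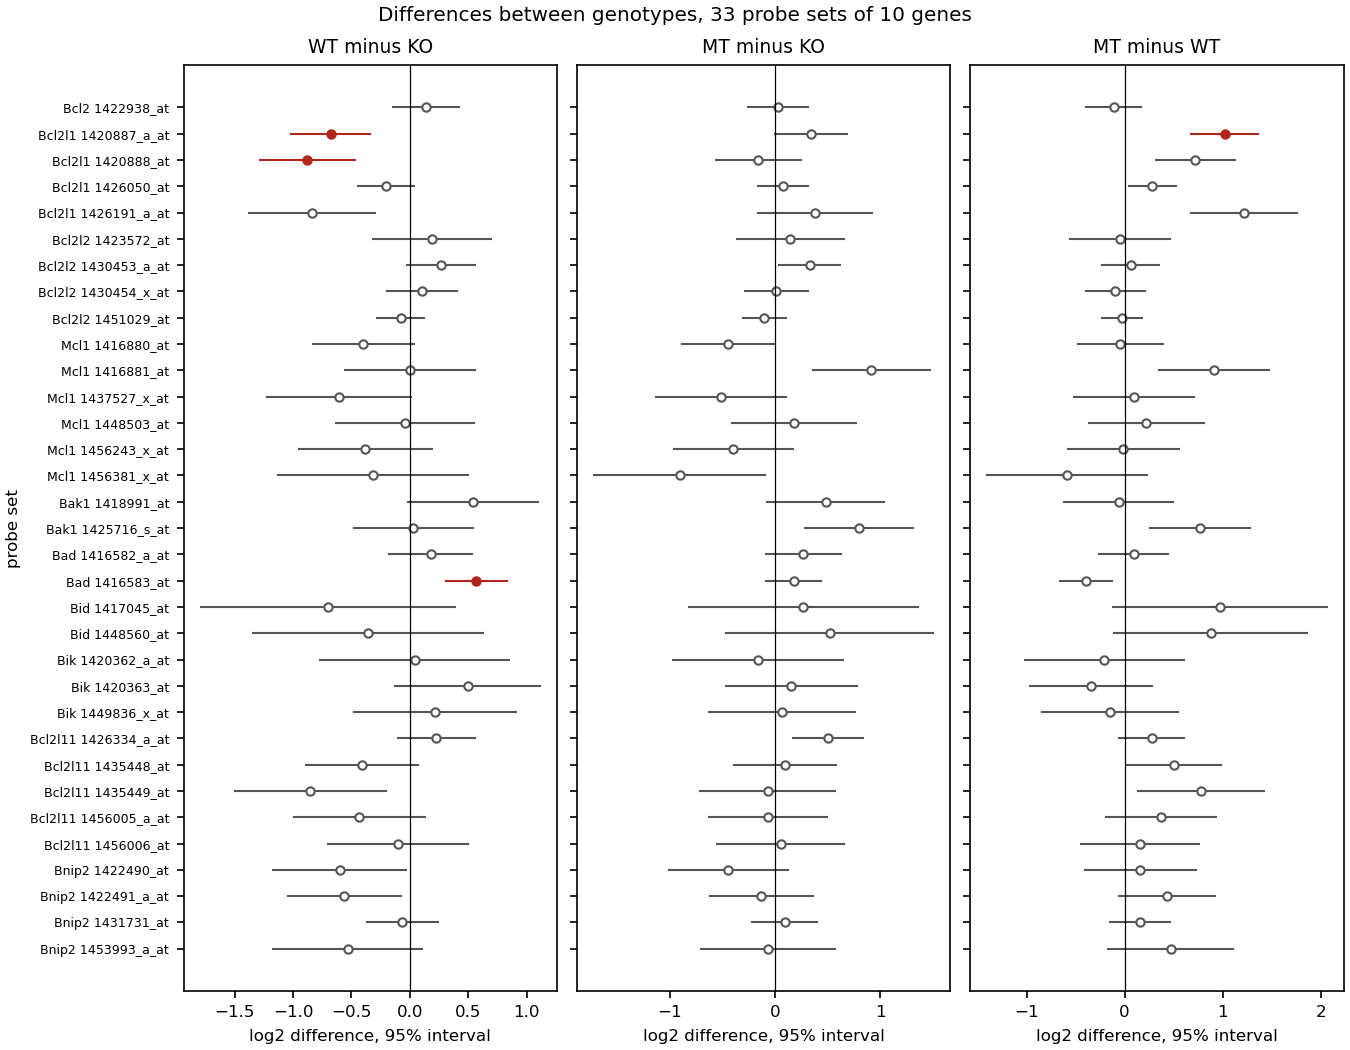
Difference in mean log2 expression between genotypes (horizontal axis) for each of the 33 probe sets (vertical axis), with 95% confidence intervals from limma, 4 tumors per genotype. Filled red points passed the adjusted threshold: 2 probe sets of Bcl2l1 and 1 of Bad for WT minus KO, none for MT minus KO, and 1 of Bcl2l1 for MT minus WT.

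A looser reading asks whether the 4 tumors of one genotype all lie above the 4 of another. For WT against KO this held for 1 probe set higher in WT (8.37 percent of all probe sets) and 4 lower (6.1 percent), the lower ones being 2 of Bcl2l1 and 2 of Mcl1. For MT against KO it held for 3 higher in MT (2.88 percent) and none lower (1.97 percent), namely 1 each of Bcl2l2, Mcl1 and Bcl2l11. For MT against WT it held for 5 higher in MT (4.44 percent), all 4 of Bcl2l1 and 1 of Bcl2l11, and for 1 lower (6.44 percent), of Bad. Of the 33 probe sets, 24 lay above the median of the array in at least 4 tumors, 15 in all 12, and 6 in none. Values of the 6 dim probe sets (1426050_at of Bcl2l1, 1430454_x_at and 1451029_at of Bcl2l2, 1425716_s_at of Bak1, 1426334_a_at of Bcl2l11 and 1431731_at of Bnip2) are the least certain.

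Bcl2l1 encodes Bcl-xL, which binds and restrains Bak1, Bax and the BH3-only proteins, and by alternative splicing also a short pro-apoptotic form, Bcl-xS. Its transcripts were lowest in WT tumors. Probe set 1420887_a_at, whose suffix marks probes shared by several transcripts of the gene, read 6.83, 7.37, 6.82 and 7.03 in WT1 to WT4, 7.79, 7.49, 8.01 and 7.47 in KO1 to KO4, and 8.03, 8.09, 8.15 and 7.87 in MT1 to MT4. All 4 WT tumors lay below all 8 tumors without wild-type p53, and KO and MT tumors overlapped. From KO to WT tumors it fell by 0.68 (SE 0.16, adjusted p = 0.0355 by limma), and from WT to MT tumors it rose by 1.02 (SE 0.16, 2.03-fold, adjusted p = 0.0246). MT exceeded KO by 0.34, with a 95% interval from 0.0034 to 0.69 and adjusted p = 0.515, or by 0.18 (−0.37 to 0.73) with the poly-A split as a block. This probe set is on the study's own list of genes chosen on these tumors, so the direction of Bcl2l1, in its sister probe sets too, is not independent evidence.

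A second probe set of Bcl2l1, 1420888_at, read 7.87, 8.50, 7.90 and 8.16 in WT tumors, 8.65, 8.89, 8.94 and 9.45 in KO tumors, and 8.99, 8.66, 8.79 and 8.87 in MT tumors. Here too every WT tumor lay below every other tumor. The WT tumors were lower than the KO tumors by 0.88 (SE 0.18, adjusted p = 0.0266). MT was above WT by 0.72 (SE 0.18) with adjusted p = 0.0938, which did not pass, and below KO by a margin within error (−0.16, 95% interval −0.56 to 0.25).

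Probe set 1426191_a_at varied most of the 4: WT1 to WT4 read 5.38, 6.22, 5.38 and 6.54, KO1 to KO4 read 6.67, 6.61, 7.06 and 6.53, and MT1 to MT4 read 7.19, 7.06, 6.90 and 7.23. WT1 and WT3 lay well below WT2 and WT4, and WT4 reached the lowest KO tumor. MT minus WT was 1.22 (SE 0.25, adjusted p = 0.06) and WT minus KO −0.84 (adjusted p = 0.0743), neither of which passed. The last, 1426050_at, lay near the bottom of the arrays: WT tumors spanned 4.24 to 4.31, KO tumors 4.26 to 4.77 and MT tumors 4.51 to 4.59. Its MT and WT values did not overlap, but the difference of 0.28 (SE 0.11) had adjusted p = 0.201. The 4 probe sets thus had the same sign in WT minus KO and in MT minus WT, and in MT minus KO 3 were positive and 1 negative.

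**Figure D2:**
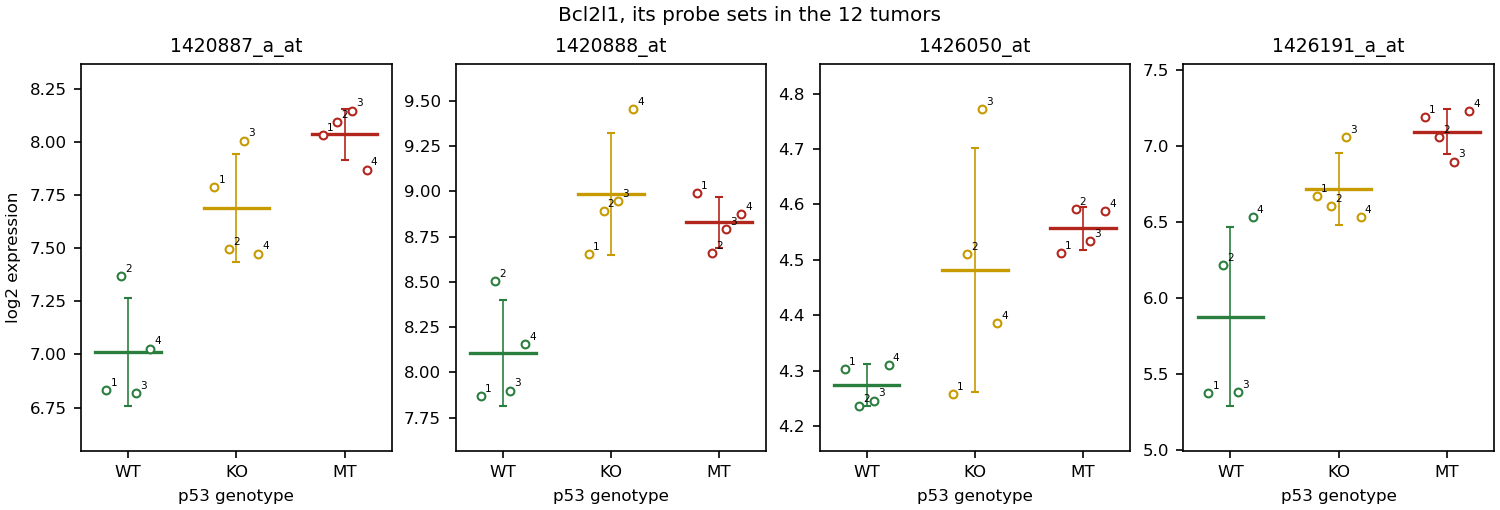
Log2 expression (vertical axes, each with its own range) of the 4 Bcl2l1 probe sets in WT, KO and MT tumors. Circles are single tumors with their numbers, bars the mean and SD of 4 tumors; in 1420887_a_at and 1420888_at all WT tumors lie below all KO and MT tumors.

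The calls of Bcl2l1 sat close to the threshold. The call of 1420887_a_at in WT minus KO was lost when any of WT1, WT3, KO1, KO2, KO3, MT1 or MT3 was left out (differences −0.80 to −0.57 over the 12 fits, adjusted p 0.0203 to 0.0965). It was also lost after cyclic loess scaling (−0.64, adjusted p = 0.0513) and with trend and robust moderation in limma (adjusted p = 0.0501), and its call in MT minus WT was lost without WT1, WT3, MT1, MT2 or MT3 (0.96 to 1.14, adjusted p 0.0131 to 0.106). That of 1420888_at was lost without WT1, WT3, KO2 or KO3 (−1.01 to −0.72, adjusted p 0.0185 to 0.0792). With the poly-A split as a block, MT minus WT of 1420887_a_at was 0.86 (95% interval 0.31 to 1.41) with adjusted p = 0.447, and those of 1420888_at and 1426191_a_at were 0.77 and 1.35. In 1420887_a_at every MT tumor lay above every WT tumor, and MT4, at 7.87, was the lowest of the MT tumors. Macrophage markers (3 of 10 raised in WT over KO tumors by the same test, mean 9.12 to 9.57 against 8.56 to 9.18) and endothelial markers (2 of 6, 5.76 to 6.19 against 5.33 to 5.87) moved with the WT to KO comparison, and 18S RNA probe sets were highest in WT1 to WT3 (8.90 to 9.33, against 6.41 to 8.03 elsewhere). Their part in the differences of Bcl2l1 and Bad was not tested. Without WT1, the tumor with lymphoid markers, WT minus KO was −0.62 in 1420887_a_at and −0.80 in 1420888_at.

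The RefSeq annotation (GRCm38.p6) gives Bcl2l1 3 transcription starts on the minus strand of chromosome 2, which are shown because the probe sets of the gene may read transcripts from different starts. Each run below is the 250 bases before a start, 5′ to 3′ on the strand of the gene, with every CG dinucleotide in capitals, followed by the same stretch for Bad.
Bcl2l1 start A, chr2:152831729-152831978: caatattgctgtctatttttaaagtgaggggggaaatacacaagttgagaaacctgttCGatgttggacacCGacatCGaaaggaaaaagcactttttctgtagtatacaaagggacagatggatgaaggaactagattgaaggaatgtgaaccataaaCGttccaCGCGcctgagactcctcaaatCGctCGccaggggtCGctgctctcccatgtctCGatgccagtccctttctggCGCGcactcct
Bcl2l1 start B, chr2:152830718-152830967: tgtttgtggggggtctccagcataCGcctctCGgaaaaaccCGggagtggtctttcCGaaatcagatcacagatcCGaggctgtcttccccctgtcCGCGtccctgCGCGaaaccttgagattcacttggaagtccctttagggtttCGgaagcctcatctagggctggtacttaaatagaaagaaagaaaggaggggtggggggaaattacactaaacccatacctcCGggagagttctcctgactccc
Bcl2l1 start C, chr2:152828490-152828739: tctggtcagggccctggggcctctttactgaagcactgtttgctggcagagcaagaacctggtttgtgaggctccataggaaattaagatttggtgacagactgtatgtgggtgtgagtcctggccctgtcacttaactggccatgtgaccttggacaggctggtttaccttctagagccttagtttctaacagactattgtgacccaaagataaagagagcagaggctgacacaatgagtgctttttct
Bad start A, plus strand, chr19:6941611-6941860: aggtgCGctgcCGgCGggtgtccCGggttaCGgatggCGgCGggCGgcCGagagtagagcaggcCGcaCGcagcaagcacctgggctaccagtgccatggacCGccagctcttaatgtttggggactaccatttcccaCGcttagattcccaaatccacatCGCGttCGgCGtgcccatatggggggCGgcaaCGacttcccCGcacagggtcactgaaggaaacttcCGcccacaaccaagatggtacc
Starts A and B of Bcl2l1 have 12 and 11 CG dinucleotides and start C has 0, whereas the first start of Bad has 21. The second start of Bad, not printed here, has 18. The median over the 32851 windows of the same length is 6, and 7.87 percent of them have none. The p53 half-site, searched by its consensus on both strands, has no match in any of the 14 windows of the 9 member genes that have one, and 7.13 percent of all windows hold a match. The STAT consensus TTCNNNGAA, its own reverse complement, likewise has no match in these 14 windows (7.02 percent of all windows). The Sp1 box GGGCGG, read on both strands, is found in 9 of the 14 windows (32.7 percent of all). It is in none of Bcl2l1, 3 times before the first start of Bad and not before the second. No motif contains another. A match or its lack describes the letters of these windows only.

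Bad encodes a BH3-only protein that binds Bcl2 and Bcl-xL and is kept inactive by phosphorylation downstream of growth factor signals. It was the only member gene with a probe set that passed as higher in WT than in KO tumors. Probe set 1416583_at read 7.49, 7.47, 7.40 and 7.35 in WT tumors, 7.03, 6.66, 7.04 and 6.70 in KO tumors, and 7.23, 6.92, 7.05 and 6.94 in MT tumors. The WT tumors lay close together and above all 8 other tumors. WT exceeded KO by 0.57 (SE 0.12, 1.48-fold, adjusted p = 0.026), and MT lay below WT by 0.39 (SE 0.12), which did not pass (adjusted p = 0.127). The sister probe set 1416582_a_at reached 8.08 in both WT and KO tumors, fell to 7.61 in KO4 and spanned 7.68 to 8.38 in MT tumors, with WT minus KO 0.18 (95% interval −0.18 to 0.53) and MT minus KO 0.27, or −0.19 with the poly-A split as a block. The change of the 2 probe sets did not differ significantly in any comparison (lowest adjusted p = 0.1075, in MT minus WT). The call of 1416583_at was lost without WT1, WT3, KO2 or KO4 (0.50 to 0.63, adjusted p 0.0298 to 0.0719) and when dim probe sets were dropped before adjustment (adjusted p = 0.0529).

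Mcl1, a short-lived anti-apoptotic protein that holds Bak1 and Bcl2l11, was read by 6 probe sets, all above the array median in all 12 tumors. None passed in any comparison, but they did not move together. Probe set 1416881_at read 8.73, 8.77, 8.53 and 9.51 in WT, 8.85, 8.42, 8.96 and 9.29 in KO, and 9.30, 9.87, 9.81 and 10.20 in MT tumors. Its MT tumors all lay above the KO tumors, the lowest of them only just. MT minus KO was 0.91 (SE 0.25, adjusted p = 0.292) and MT minus WT 0.91 (adjusted p = 0.112). Probe set 1456381_x_at, whose suffix marks probes that resemble other sequences, went the other way, at 9.61, 9.33, 9.09 and 9.66 in WT, 9.93, 9.39, 9.64 and 10.00 in KO, and 8.22, 8.57, 8.34 and 10.21 in MT tumors. MT1, MT2 and MT3 were the lowest of the 12 tumors and MT4 was the highest. Its MT minus KO of −0.90 (SE 0.37, adjusted p = 0.466) became −1.36 (adjusted p = 0.0154) without MT4. MT1 to MT3 are the tumors with high poly-A controls, whose part in this result was not tested.

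The other 4 probe sets of Mcl1 gave MT minus KO differences of −0.44 (1416880_at), −0.51 (1437527_x_at), −0.39 (1456243_x_at) and 0.18 (1448503_at). In WT against KO, 1416880_at (9.46 to 9.92 against 10.01 to 10.37) and 1437527_x_at (9.79 to 10.46 against 10.49 to 10.99) did not overlap, with WT lower by −0.40 and −0.61 (adjusted p = 0.246 and 0.213). With the poly-A split as a block, all 6 probe sets had a positive MT minus KO difference, from 0.12 to 1.32, with adjusted p of at least 0.544, and a positive MT minus WT difference, from 0.52 to 1.32, with adjusted p of at least 0.447. Without the block MT minus WT ranged from −0.59 to 0.91. MT4 was the highest tumor of all 12 in 5 of the 6 probe sets, and second to KO4 in 1416880_at.

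The unequal movement of probe sets of a gene was tested on its own, by limma on the log2 gap between 2 probe sets within each array, over all 12821 pairs of probe sets of 4956 genes. A pair that passes shows unequal change only. Of the 49 pairs in 9 member genes, 4 passed for WT minus KO (5.79 percent of all pairs), 9 for MT minus KO (6.11 percent) and 6 for MT minus WT (1.24 percent). All 9 of MT minus KO and 5 of the 6 of MT minus WT were pairs of Mcl1. Each of these 9 pairs held 1416881_at or 1448503_at, and each of the 5 held 1416881_at. The pairs thus overlap in their probe sets, so that their number does not count separate observations. In the widest, the gap of 1416881_at over 1456381_x_at was −0.88, −0.56, −0.57 and −0.15 in WT, −1.08, −0.96, −0.68 and −0.71 in KO, 1.08, 1.30 and 1.46 in MT1 to MT3, and −0.0029 in MT4. MT4 thus lay between the other MT tumors and the WT and KO tumors. The gap widened by 1.82 from KO to MT (SE 0.27, adjusted p = 0.0129), and by 0.86 (adjusted p = 0.512) with the poly-A split as a block. Under that block no member pair passed for MT minus KO or MT minus WT. Without MT1, MT2 or MT3 in turn, 1 pair passed for MT minus KO (4 without KO2, 5 without KO4, and 13 without MT4). For MT minus WT, none passed without WT1, WT3, KO3, MT1, MT2 or MT3, 1 without WT2, 2 without KO1, 3 without KO2, 12 without WT4 and 13 without MT4. Shares of all pairs passing in the fits with a tumor left out are not given here. Those counts are therefore not set against the whole array.

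**Figure D3:**
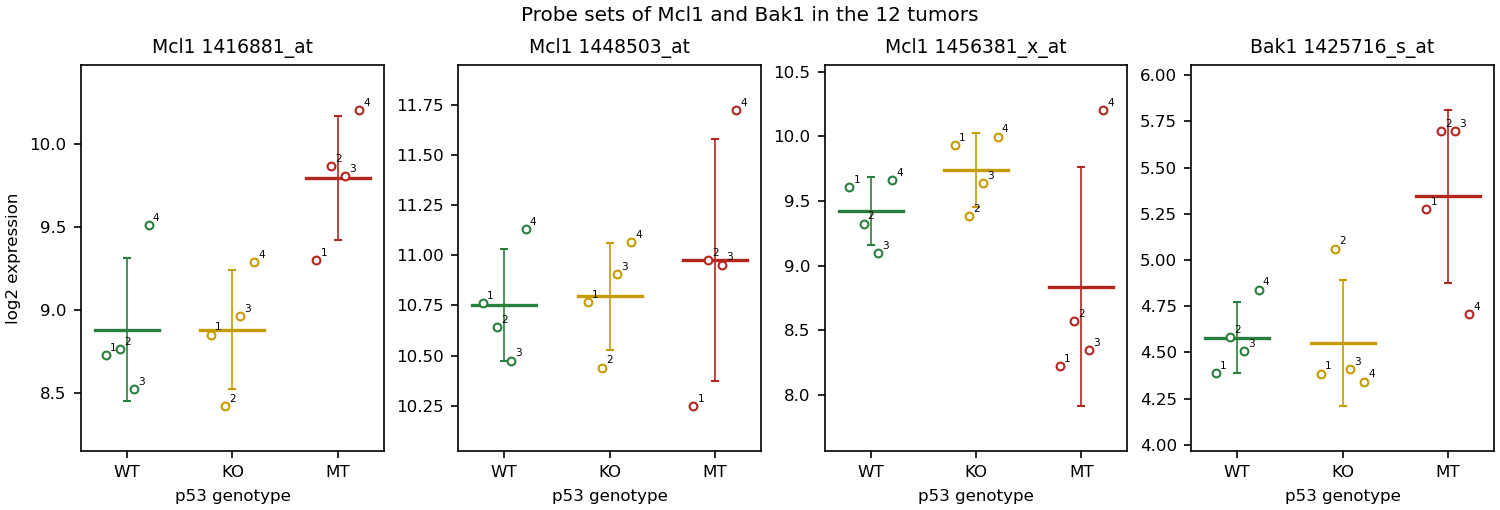
Log2 expression (vertical axes, each with its own range) of 3 probe sets of Mcl1 and 1 of Bak1 in WT, KO and MT tumors, with single tumors numbered and bars for the mean and SD of 4 tumors. MT4 lies apart from MT1, MT2 and MT3 in 1456381_x_at and 1425716_s_at, at 10.21 and 4.71.

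Pairs that parted WT from KO tumors were 3 of Bcl2l11 and 1 of Mcl1. The Mcl1 pair, 1437527_x_at minus 1448503_at, was −0.61, −0.77, −0.69 and −0.67 in WT, −0.18, 0.05, −0.28 and −0.08 in KO, and −0.74, −0.95, −0.90 and −0.67 in MT tumors. WT and MT tumors shared the wider gap, and KO tumors lay apart from both. WT minus KO was −0.56 (SE 0.12, adjusted p = 0.0212) and MT minus KO −0.69 (adjusted p = 0.0185). With the poly-A split as a block these were −0.56 (adjusted p = 0.0164) and −0.55 (adjusted p = 0.512). In Bcl2l1, 1420887_a_at gained on the dim 1426050_at from WT (gaps 2.53 to 3.13) to MT tumors (3.28 to 3.61) by 0.74 (SE 0.16, adjusted p = 0.0486). The number of pairs passing for WT minus KO was 1 without WT1, 2 without WT2, KO2 or KO4, none without WT3, 6 without WT4, and 1 when dim probe sets were dropped.

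Bcl2, the founding anti-apoptotic member, was read by 1422938_at at 7.02, 7.30, 7.12 and 6.95 in WT, 7.03, 7.02, 7.18 and 6.62 in KO, and 7.01, 6.99, 7.06 and 6.90 in MT tumors. The genotypes overlapped fully. WT minus KO was 0.14 (95% interval −0.14 to 0.42), MT minus KO 0.03 (−0.26 to 0.31) and MT minus WT −0.11 (−0.39 to 0.17). With the poly-A split as a block MT minus KO was −0.07 (−0.53 to 0.40) and MT minus WT −0.20 (−0.67 to 0.26). Bcl2l2, which encodes the anti-apoptotic Bcl-w, had 4 probe sets with differences between −0.10 and 0.33 in the 3 comparisons, none of which passed (adjusted p 0.254 to 0.991). Its 1430453_a_at was 6.44 to 6.59 in KO and 6.66 to 6.94 in MT tumors without overlap, a difference of 0.33 (SE 0.13, adjusted p = 0.459), or 0.13 (95% interval −0.32 to 0.58) with the poly-A split as a block. Probe set 1423572_at was 8.45 to 8.76 in WT, 7.74 to 8.71 in KO and 8.04 to 8.93 in MT tumors, with MT4 the lowest MT tumor. Its MT minus KO was 0.14, or −0.34 under the block.

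Bak1, the pore-forming effector, was read by 2 probe sets that ranked the tumors differently. Probe set 1418991_at was 7.34, 7.04, 7.15 and 6.20 in WT, 6.07, 6.46, 6.30 and 6.74 in KO, and 6.68, 7.30, 6.95 and 6.54 in MT tumors. WT4 lay with the KO tumors, and WT minus KO was 0.54 (SE 0.25, adjusted p = 0.218), or 0.79 (adjusted p = 0.0499) without WT4. MT minus KO was 0.48, or 0.15 (95% interval −0.72 to 1.03) with the poly-A split as a block. The dim 1425716_s_at, whose suffix marks probes shared with other genes, was 4.39 to 4.84 in WT and 4.34 to 5.06 in KO tumors, 5.28, 5.70 and 5.70 in MT1 to MT3 and 4.71 in MT4. MT minus KO was 0.79 (SE 0.23, adjusted p = 0.316) over all tumors, 1.01 (adjusted p = 0.0435) without MT4, and 0.16 (adjusted p = 1) with the poly-A split as a block. MT1 to MT3 again parted from MT4 along the poly-A controls, whose part was not tested.

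Bid links death receptors to mitochondria once caspases cleave it. It varied most between tumors of one genotype. Probe set 1417045_at read 7.65, 7.46, 7.90 and 7.21 in WT, 8.55, 7.81, 8.38 and 8.29 in KO, and 9.94, 7.84, 9.22 and 7.12 in MT tumors. MT1 and MT3 were the highest of the 12 tumors and MT4 the lowest. MT minus WT was 0.97 with a 95% interval from −0.12 to 2.06 (adjusted p = 0.308). With the poly-A split as a block it was −0.44 (−1.76 to 0.88, adjusted p = 0.873), and MT minus KO went from 0.27 to −1.14. The second probe set, 1448560_at, followed the same tumors (8.58 and 8.10 in MT1 and MT3, 6.30 in MT4), and the 2 correlated at r = 0.95 over the 12 tumors, as a description over shared arrays. Its MT minus WT was 0.88, and −0.22 (−1.54 to 1.10) under the block.

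Bik, a BH3-only protein of the endoplasmic reticulum, was set by 1 tumor. In 1420363_at WT2 read 8.62, and the other 11 tumors 6.93 to 7.65. In 1420362_a_at WT2 read 7.75 and the others 5.58 to 6.92, and in 1449836_x_at 8.32 against 6.68 to 7.61. No comparison passed for any of the 3 (adjusted p 0.313 to 0.975).

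**Figure D4:**
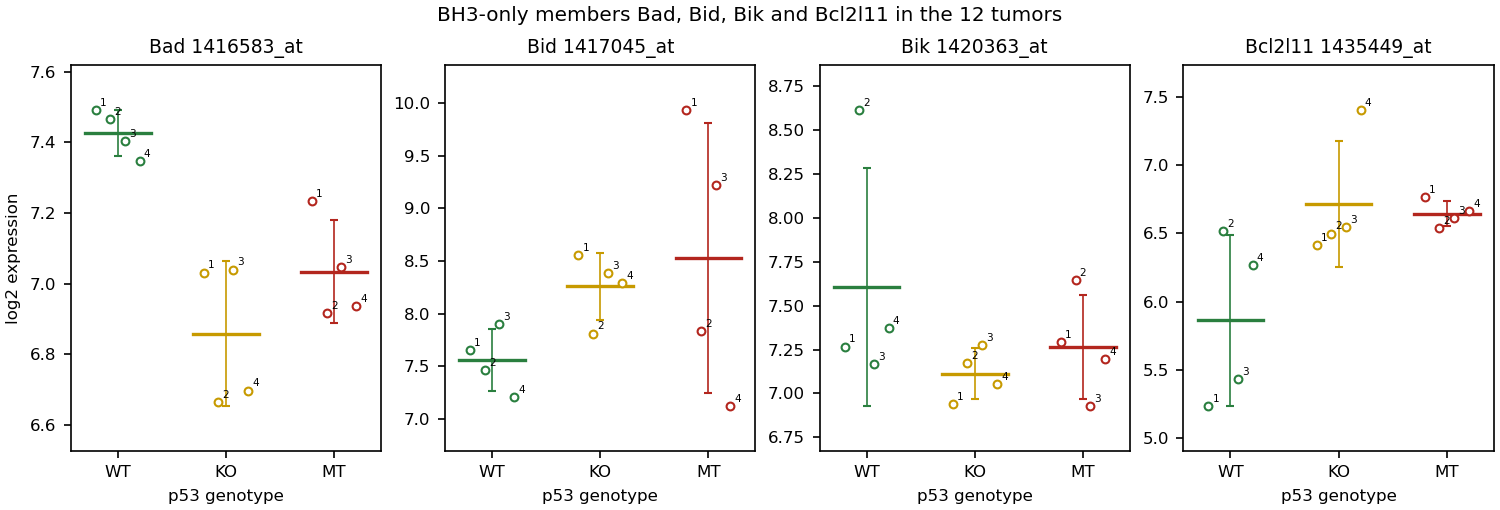
Log2 expression (vertical axes, each with its own range) of 1 probe set each of Bad, Bid, Bik and Bcl2l11 in WT, KO and MT tumors, with single tumors numbered and bars for the mean and SD of 4 tumors. The WT tumors lie above all others for Bad, WT2 stands alone for Bik at 8.62, and MT1 and MT3 are highest for Bid.

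Bcl2l11 encodes Bim, a BH3-only protein that binds all the anti-apoptotic members, in several splice forms. None of its 5 probe sets passed in any comparison. In 1435449_at the values were 5.23, 6.52, 5.43 and 6.27 in WT, 6.41, 6.50, 6.54 and 7.40 in KO, and 6.76, 6.54, 6.61 and 6.66 in MT tumors. WT1 and WT3 were the lowest here, as they were in 1420887_a_at, 1420888_at and 1426191_a_at of Bcl2l1. WT minus KO was −0.85 (SE 0.29, adjusted p = 0.11) and MT minus WT 0.78 (adjusted p = 0.191). The dim 1426334_a_at moved the other way between WT and KO tumors (0.23) and was higher in MT (5.91 to 6.15) than in KO tumors (5.44 to 5.62) without overlap, by 0.50 (SE 0.15, adjusted p = 0.319). The gap between these 2 probe sets was 0.30, −0.36, −0.01 and −0.36 in WT and −0.79, −1.06, −0.97 and −1.93 in KO tumors, and differed by 1.08 (SE 0.23, adjusted p = 0.0226). The pairs 1426334_a_at with 1435448_at (0.64, adjusted p = 0.0381) and 1435449_at with 1456006_at (−0.75, adjusted p = 0.0248) also parted WT from KO. Probe set 1456005_a_at overlapped between all genotypes (7.74 to 8.87 in WT, 8.21 to 9.08 in KO and 8.35 to 8.72 in MT tumors).

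Bnip2 had a negative WT minus KO difference in all 4 probe sets, from −0.60 to −0.06, and none passed (lowest adjusted p = 0.152, in 1422491_a_at). In 1422490_at the values were 8.90, 7.95, 8.51 and 8.87 in WT, 9.12, 8.99, 8.86 and 9.67 in KO, and 8.70, 8.27, 8.70 and 9.20 in MT tumors. WT2 was the lowest tumor in the 3 brighter probe sets, and KO4 the highest or second to MT4. In 1453993_a_at WT2 read 7.03 against 7.71 to 8.81 in the other tumors. MT minus KO ran from −0.44 to 0.09 over the 4 probe sets, and from 0.04 to 0.45 with the poly-A split as a block. KO4 also had the largest difference between the 3′ and 5′ probe sets of actin, a sign of RNA quality (1.05, against 0.17 to 0.58 in the other tumors), whose part was not tested.

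Other genes of the family and of the mitochondrial pathway were counted from lists. Of 19 other family genes listed, 11 were measured by 12 probe sets, and Bax was not analysed here. Only Bcl2l13, a mitochondrial outer-membrane protein, passed, with 7.27 to 7.75 in WT and 8.18 to 8.53 in KO tumors, a difference of −0.83 (SE 0.20, adjusted p = 0.0409). Of all probe sets, 1.94 percent passed as lower in WT. The p53 targets Bbc3 (0.24, adjusted p = 0.376) and Pmaip1 (0.30, adjusted p = 0.622) did not pass for WT minus KO. No probe set of this list passed for MT minus KO or MT minus WT (2 and 3 of 12 had an unadjusted p under 0.05, against 9.58 and 19.4 percent of all probe sets). Of 19 genes of the pathway downstream, among them cytochrome c, Apaf1 and caspases, 16 were measured by 46 probe sets. In WT minus KO 5 passed as higher (2.64 percent of all probe sets) and none as lower (1.94 percent). All 5 were of Slc25a5, an adenine nucleotide carrier of the inner membrane whose near-identical gene copies make its probe sets uncertain. The strongest, 1438545_at, was 8.61 to 9.50 in WT and 7.79 to 8.36 in KO tumors (1.10, SE 0.21, adjusted p = 0.0199), and from WT to MT it fell by 1.17 (adjusted p = 0.0464). None of the 46 passed for MT minus KO, with 6 at an unadjusted p under 0.05, against 9.58 percent of all probe sets. For MT minus WT only 1438545_at passed as lower (0.19 percent of all probe sets) and none as higher (0.177 percent). In that comparison 35 of the 46 differences were negative and 11 positive, and 20 had an unadjusted p under 0.05, against 19.4 percent. MT1 to MT3 are the tumors with high poly-A controls, whose part was not tested. The median difference over these 46 probe sets was 0.15 for WT minus KO, −0.04 for MT minus KO and −0.34 for MT minus WT.

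The genes whose levels followed the called member probe sets most closely over the 12 tumors are given as a description, since all come from the same arrays and share the genotype means. For 1420887_a_at of Bcl2l1 they were Epb41l1 (r = 0.96), a membrane skeleton protein, Klra5 (0.93), a natural killer cell receptor read near background, and Etv4 (0.92), an ETS transcription factor that averaged 7.85 over the WT, 9.05 over the KO and 9.54 over the MT tumors. For 1420888_at they were Arhgef7 (0.96), Slc46a3 (0.96) and Cacna1a (0.95). For 1416583_at of Bad they were Mrpl16 (0.94), a mitochondrial ribosomal protein, Mvk (0.93), the mevalonate kinase, and Ypel1 (0.93).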

How the data were processed

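The tumors were measured on Affymetrix Mouse Genome arrays, 1 per tumor. Per the paper's methods, the authors collated the probe-level files with RMA in BRB-ArrayTools 3.5.0, which gives log2 values. The table used here was taken to hold these log2 values. Notes from the submitters list both RMA and MAS5 with no version, without saying which of them produced the table. Intensity files were not analysed here.

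Of 22690 probe sets, 64 controls were left out. Symbols came from the platform annotation, updated through RefSeq gene records, and 20380 probe sets had 1 symbol and 691 several. Probe sets with several symbols were given to no gene. The members, the lists and the tests were chosen with earlier results of these data known. The text names all 10 members with every probe set, up to 4 called probe sets per list and comparison, and the 3 genes most like each called member probe set.

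All 12 tumors were fitted with limma 3.58.1 (lmFit and eBayes, 9 residual degrees of freedom) in R 4.3.3, 2-sided, with Benjamini-Hochberg adjustment over all 22626 probe sets and a threshold of 0.05. Sister probe sets were compared by the same test on their log2 gap over 12821 pairs. Precision is limited by having 4 arrays per genotype, and nothing in the labels says more of the tumors than that each came from a mouse of its genotype. No 2 arrays were alike (correlations 0.920 to 0.983). Same-numbered tumors deviated together in 6 of 12 pairs (r over 0.1), with r from 0.0023 to 0.33 over the 12. Differently numbered tumors were not compared in this way, so these values cannot decide on pairing. The numbers were not treated as pairs because the labels do not name them as such, and a fit with them as a block is given below. The poly-A split is inferred from the controls and is named in no source used here.

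Alternatives were cyclic loess, centering of arrays, a filter on dim probe sets, fits to the 8 tumors compared, trend and robust moderation, array weights, an ordinary t-test, blocks, a threshold of 0.1, and each tumor left out. The scripts were tested on simulated data. Promoter windows are RefSeq's for GRCm38.p6, and figures were drawn with matplotlib 3.10.9 in Python 3.11.15.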

Additional observations from a re-analysis of the deposited data

Results flagged for a closer look

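A tumor was set aside for a closer look where, among the 4 tumors of a genotype, its gap to the nearest other tumor was too large a share of the whole range by Dixon's 95% criterion. Of 99 sets of 4 values (33 probe sets in 3 genotypes), 7 met this, and chance alone gives about 1 in 20. WT2 accounted for 3 of them, all of Bik: 7.75 in 1420362_a_at (next highest WT tumor 6.22), 8.62 in 1420363_at (7.37) and 8.32 in 1449836_x_at (lowest WT tumor 6.77). KO4 was high in 1416880_at of Mcl1 at 10.37 (next 10.05) and in 1435449_at of Bcl2l11 at 7.40 (next 6.54). KO2 was high in 1425716_s_at of Bak1 at 5.06 (next 4.41). MT4 was low in 1430453_a_at of Bcl2l2 at 6.66 (next 6.92).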

How the results depend on the processing

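No called difference changed sign under any alternative, and the calls themselves depended on several. The 3 calls of member probe sets for WT minus KO became 0 in fits to the 8 tumors compared and by an ordinary t-test, 6 with array weights (14.5 percent of all probe sets), 2 with cyclic loess and with trend and robust moderation (1420887_a_at of Bcl2l1 lost in both), and 0 to 5 with a tumor left out (0 without WT1, WT3 or KO2, 1 without KO3). The single call for MT minus WT became 2 with dim probe sets left out, 0 in fits to the 8 tumors and by that t-test, 11 with array weights (22 percent of all), 3 at a threshold of 0.1, and 0 to 4 with a tumor left out (0 without WT1, WT3, MT1, MT2 or MT3, 4 without MT4). For MT minus KO no probe set passed under any setting except without MT4, where 2 did (0 to 2 over the tumors left out): 1456381_x_at of Mcl1 and 1425716_s_at of Bak1. The ordinary t-test at 10% called none, none and 1 of the 33, and at an unadjusted p under 0.05 it called 8 for WT minus KO (20.2 percent of all probe sets), 6 for MT minus KO (8.01 percent) and 8 for MT minus WT (17.5 percent).

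With the poly-A split as a block the calls for MT minus WT became 0, and those of sister pairs became 0 for MT minus KO and 0 for MT minus WT. The replicate block, with the tumors' numbers as pairs, left the count for WT minus KO at 3, 1 of them the otherwise uncalled 1422491_a_at of Bnip2 (−0.56, adjusted p = 0.0263) in place of 1420887_a_at of Bcl2l1, and took the calls for MT minus WT to 0 (adjusted p = 0.0511 for 1420887_a_at) and the sister pairs for MT minus WT to 0. Sister pairs for WT minus KO became 1 with dim probe sets left out, 11 at a threshold of 0.1 and 0 to 6 with a tumor left out. Those for MT minus KO became 1 to 13 with a tumor left out, and those for MT minus WT 11 at a threshold of 0.1 and 0 to 13 with a tumor left out. The cause of these changes was not tested. Low probe sets limit the rest: 6 of the 33 lay below the median of every array. Where no share of all probe sets or pairs is printed beside a count, that count is not set against the whole array.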
